A study of Mus musculus with 10 samples.

Results

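The genes described here are the D cyclins Ccnd1, Ccnd2 and Ccnd3, the E cyclins Ccne1 and Ccne2, the kinases Cdk4, Cdk6 and Cdk2, the transcription factor gene E2f1 and the phosphatase gene Cdc25a. These 10 members were chosen by name, for their place in the passage from G1 into S phase, from the 17404 genes of the deposited count table. The choice did not use measured values, but earlier results of these data were known when it was made. All 10 were in the table and all 10 passed the filter of at least 11 counts in total, as did 16725 genes in all. RNA was sequenced in bulk from long-term hematopoietic stem cells (LT-HSCs) sorted as CD150+ cells from mouse fetal livers at E14.5. Of the libraries, 6 came from Tnfrsf11aCre; Spi1f/f embryos (KO, n = 6) and 4 from Tnfrsf11a+/+; Spi1f/f littermates (WT, n = 4), all on a C57BL/6 background. Both groups carry floxed alleles of Spi1, which encodes the PU.1 factor that macrophages need to form, and only KO embryos carry the Cre. The Cre is driven from the Tnfrsf11a locus, which is active in macrophage precursors, so the model is meant to remove fetal macrophages and the stem cells themselves are not its intended target. The comparison therefore asks whether stem cells from a liver short of macrophages differ in their G1 genes.

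A cell in G1 makes D cyclins when growth signals reach it. They activate CDK4 and CDK6, which begin to phosphorylate the retinoblastoma protein and its relatives and so free E2F factors. E2F1 and related factors then switch on Ccne1, Ccne2 and the genes of DNA replication, and cyclin E with CDK2 completes the step into S phase. CDC25A removes inhibitory phosphates from CDK2. Adult hematopoietic stem cells are mostly out of cycle, whereas those of the fetal liver divide.

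Total counts per library spanned 5315435 to 30941726 among KO libraries and 7633446 to 18256010 among WT libraries. Spi1 was present at 9.10 to 101.3 CPM (counts scaled to library size after TMM normalization) in KO and at 6.22 to 50.1 CPM in WT, and did not pass the test (log2 fold change 1.31, SE 0.69, edgeR adjusted p = 0.337). Since the stem cells are not the intended target of the Cre, this level is no check of the genotype labels. Recombination in the sorted cells was not tested. Tnfrsf11a lay between 0.683 and 5.80 CPM over both groups. Of the stem cell genes listed to check the cell type, Kit, which encodes the SCF receptor, lay at 78.2 to 388.7 CPM, and Cd48, which LT-HSCs lack, at 0.271 to 13.3 CPM. Genes of other liver cells were present too. The sum of 8 endothelial genes ranged from 1133 to 8001 CPM in KO and from 265 to 5102 CPM in WT. The sum of 7 erythroblast genes ranged from 235 to 2270 CPM in KO and from 224 to 6439 CPM in WT, and that of 8 hepatoblast genes from 91.6 to 8377 and from 257 to 5616 CPM. Xist, read from the transcript tables, was at 1.26 to 2.40 CPM of the estimated counts in 4 KO libraries, at 381 and 332 in the other 2 (15406 and 15409) and at 73.5 to 129 in WT. Levels in TPM (a share of all transcripts, scaled for length), summed over 4 Y-linked genes, were 41.6 to 70.4 in the same 4 KO libraries and 0.980 to 5.78 in the others. Libraries with Y-linked transcripts and little Xist thus occurred in KO and not in WT, and each genotype result below rests on groups that differ in this way.

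Among the members, 1 of 10 passed the test between genotypes, Ccne1, which was lower in KO. Of all genes tested, 446 of 16725 (2.67%) were called lower in KO and 221 (1.32%) higher, at a Benjamini-Hochberg adjusted p below 0.1 by edgeR's quasi-likelihood test. A single call among 10 genes is too few to read against that background. The log2 fold change (KO against WT) was below 0 in 6 members and above 0 in 4, with a median of -0.24, against a median of 0.06 over all genes, of which 8884 lay above 0 and 7841 below. The median of the members stayed below 0 under all 20 alternative fits, from -0.41 to -0.0023, the latter without WT library 15418. Unadjusted p-values were under 0.05 for 3 members, Ccne1, Ccne2 and Cdc25a, all of which were lower in KO. Of all 16725 genes tested, 3139 had an unadjusted p under 0.05 by the same test. A count of 3 among 10 is too few to read against that background. In bulk RNA, fewer cells in a given state and less RNA in each cell cannot be told apart.

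**Figure D1:**
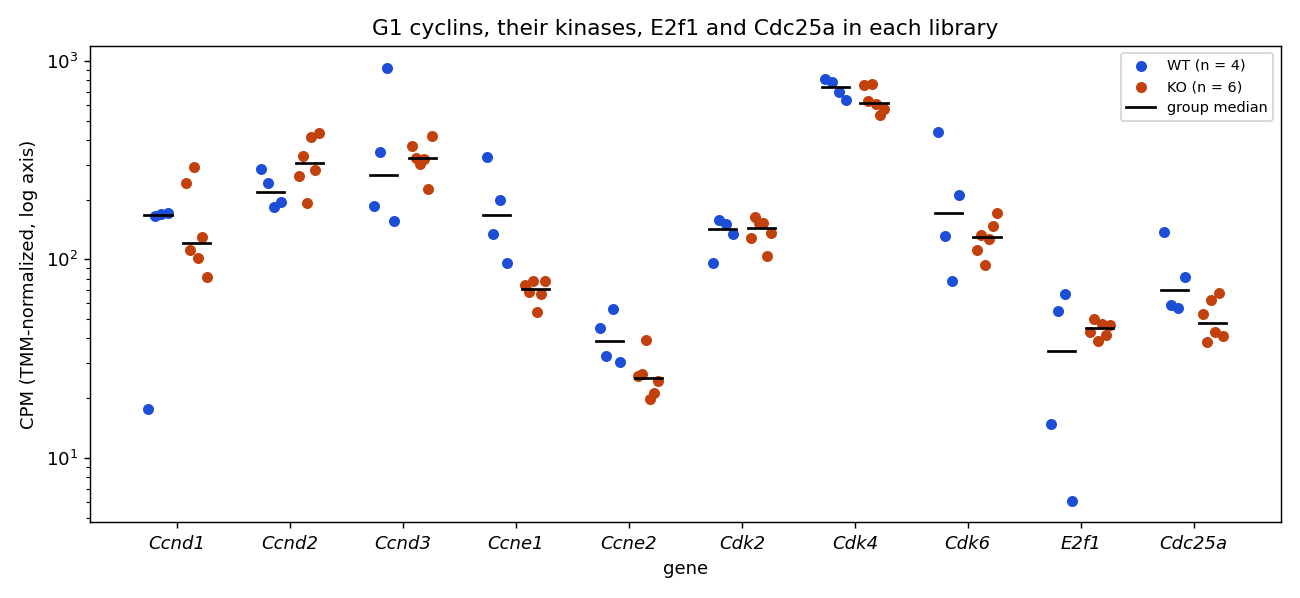
CPM after TMM normalization (log axis) of the 10 members in each of 4 WT and 6 KO libraries, with a bar at each group's median. Ccne1 is the member whose groups do not overlap, with KO between 54.1 and 77.6 CPM and WT between 96.1 and 329 CPM.

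Ccne1 (chromosome 7, 38097984 to 38107534, minus strand of GRCm38) encodes cyclin E1, the partner of CDK2 at the entry into S phase. Its level in WT was 329, 135, 200 and 96.1 CPM (libraries 15416, 15417, 15418 and 15420). In KO it was 73.9, 68.3, 77.4, 54.1, 66.9 and 77.6 CPM (libraries 15405, 15406, 15409, 15411, 15412 and 15415). All 6 KO libraries lay below the lowest WT library, and the KO values were close together (69.7 ± 8.86, SD, n = 6) while the WT values were spread (190 ± 102, SD, n = 4). CPM of every KO library below every WT library was seen for 582 of 16725 genes (3.48%), and the opposite for 482 (2.88%). The log2 fold change was -1.45 (SE 0.28, edgeR adjusted p = 0.0824). With the study's DESeq2 settings, a test against a log2 threshold of 0.1, the adjusted p was 0.00634, where 551 of 14282 genes (3.86%) were called lower. In TPM, which scales for transcript length, the groups overlapped, with 31.0 to 46.1 TPM in KO and 40.0 to 141 TPM in WT.

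The direction of the Ccne1 difference held in every one of 20 alternative fits, with log2 fold changes from -1.67 to -1.04, but its side of the threshold did not, with adjusted p-values from 0.00149 to 0.837. Leaving out WT library 15416, the highest, gave -1.04 and an adjusted p of 0.165, and leaving out KO library 15411 gave -1.38 and the highest adjusted p of any library left out, 0.205. With only the 2 KO libraries that express Xist and the 4 WT libraries, the log2 fold change was -1.40 and the adjusted p 0.837. Of all genes tested, 0 were called in this fit and without WT library 15416, and 1 was called without KO library 15411. The promoter window of Ccne1 is shown because Ccne1 is a classical target of E2F factors. RefSeq (GRCm38.p6) gives 250 bases before to 50 bases after its start at chr7:38107441-38107740, minus strand, as follows.
Ccne1: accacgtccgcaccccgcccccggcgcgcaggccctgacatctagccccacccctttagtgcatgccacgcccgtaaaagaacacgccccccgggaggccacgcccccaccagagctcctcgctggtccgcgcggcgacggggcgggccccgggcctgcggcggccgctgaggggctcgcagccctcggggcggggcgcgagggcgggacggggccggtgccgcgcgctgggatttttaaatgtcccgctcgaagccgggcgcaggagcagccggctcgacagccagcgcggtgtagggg
The window is rich in G and C (76.0%) and held none of 4 spellings of the E2F motif that were searched on both strands, TTTCCCGC, TTTGGCGC, TTTCGCGC and TTTGCCGC. The absence says only that these letters are not in this window. Of 32851 RefSeq promoter windows, 744 (2.265%) held at least one of them.

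Ccne2 (chromosome 4, 11191351 to 11204779, plus strand) encodes cyclin E2, a close relative of cyclin E1. It was at 44.9, 32.7, 56.4 and 30.6 CPM in WT and from 19.7 to 39.2 CPM in KO, with a median of 25.1. In CPM, 5 of the 6 KO libraries lay below the lowest WT library, and KO library 15409 lay among the WT values. Ccne2 did not pass, with a log2 fold change of -0.66 (SE 0.26, edgeR adjusted p = 0.196). In TPM the WT libraries were tightly grouped at 16.9 to 17.7, inside the KO range of 8.28 to 24.4. Exons of Ccne2 share 17.4% of their bases with Ints8 on the other strand, and since SmartSeq2 libraries do not keep strand, reads from those bases cannot be told apart.

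Cdc25a (chromosome 9, 109875579 to 109893895, plus strand) encodes a phosphatase that activates CDK2. Its CPM in WT was 138, 58.8, 57.1 and 81.4, and in KO 38.2 to 68.1 with a median of 48.0. In CPM, 4 of the 6 KO libraries lay below the lowest WT library. This difference, a log2 fold change of -0.72 (SE 0.28, edgeR adjusted p = 0.193), did not pass. The promoter of Cdc25a is shown beside that of Ccne1 because it did hold one of the E2F spellings. The RefSeq window, chr9:109875329-109875628 on the plus strand of GRCm38.p6, has TTTGGCGC, in capitals, beginning 67 bases before the start.
Cdc25a: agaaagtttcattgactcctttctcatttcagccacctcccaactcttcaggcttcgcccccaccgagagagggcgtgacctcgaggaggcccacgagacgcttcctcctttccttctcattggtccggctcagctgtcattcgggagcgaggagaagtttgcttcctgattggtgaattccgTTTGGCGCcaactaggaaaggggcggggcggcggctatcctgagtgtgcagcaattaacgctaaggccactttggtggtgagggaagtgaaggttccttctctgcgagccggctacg
Windows were found for 7 of 10 members, and not for Ccnd1, Ccnd2 or Ccne2. Beside Cdc25a, Cdk2 held a match, GCGGGAAA at 140 bases before its start, which is TTTCCCGC read on the other strand. The windows of E2f1, Cdk4, Cdk6 and Ccnd3 held none. The E2f1 window, 154569377 to 154569676, lies downstream of the Gencode starts of both E2f1 transcripts described below, and so covers no base before either start. A match is a description of the letters and not a site shown to bind a factor.

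Cdk2 (chromosome 10, 128697939 to 128705031, minus strand) encodes the kinase partner of cyclin E. It lay at 96.5, 157, 152 and 134 CPM in WT and at 105 to 164 CPM in KO, so the KO values stood inside or just above the WT range. The log2 fold change was 0.05 (SE 0.19, edgeR adjusted p = 0.921), and turned to -0.04 with an offset for transcript length. A pair of protein-coding transcripts carried most of its TPM, Cdk2-202 with 48.6 to 68.2% in KO and 35.7 to 65.5% in WT, and Cdk2-201 with 23.6 to 43.9% and 30.6 to 59.3%. The ranges of both overlapped between the groups.

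The D cyclins did not pass the test in either direction. Ccnd2 (chromosome 6, 127125162 to 127152193, minus strand) had the highest log2 fold change of the members and was at 285, 244, 183 and 194 CPM in WT and at 193 to 433 CPM in KO, with a median of 308. Its log2 fold change of 0.50 (SE 0.24, edgeR adjusted p = 0.288) did not pass, and its sign held in all 20 alternatives, from 0.21 to 0.63. Its groups overlapped, with WT inside the KO range but for 1 library. Ccnd3 (chromosome 17, 47505051 to 47599691, plus strand) was at 186, 348, 927 and 156 CPM in WT, so that library 15418 stood above all others, and at 226 to 421 CPM in KO. Its log2 fold change was -0.30 (SE 0.42, edgeR adjusted p = 0.755), and 0.55 without WT library 15418.

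Ccnd1 (chromosome 7, 144929931 to 144939925, minus strand) was at 17.6, 165, 170 and 171 CPM in WT, with library 15416 far below the other 3. In KO it ranged from 81.8 to 292 CPM with a median of 120.5. The log2 fold change was 0.29 (SE 0.55, edgeR adjusted p = 0.827), and -0.08 without WT library 15416. Summed endothelial genes stood at 265 CPM in WT library 15416, where Ccnd1 was lowest, and at 8001 CPM in KO library 15409, where Ccnd1 was highest. The sum of 12 macrophage genes was likewise lowest in WT library 15416 (48.8 CPM) and highest in KO library 15409 (773 CPM). Most of that sum in KO library 15409 was 1 gene, Mrc1 (714 CPM), which was at 3.11 CPM in WT library 15416. Summed erythroblast genes were highest, at 6439 CPM, in WT library 15418, where Ccnd3 was highest. The sum of 8 neutrophil genes was also highest there, at 2066 CPM. The Ccnd3 pairing is thus not particular to 1 cell type, while the high macrophage sum beside Ccnd1 rests mainly on Mrc1. The part of any of these cell types in the cyclin levels was not tested. Exons of Ccnd1 share 23.4% of their bases with LTO1 on the other strand.

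**Figure D2:**
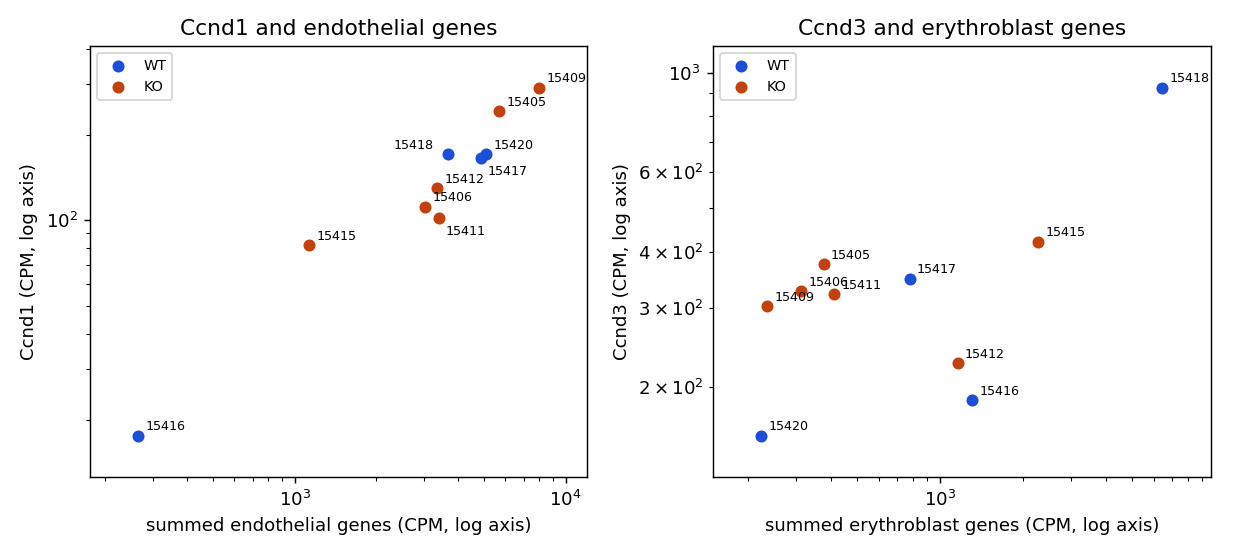
Left, Ccnd1 against the sum of 8 endothelial genes, and right, Ccnd3 against the sum of 7 erythroblast genes, both in CPM on log axes, 1 point per library with its number (WT n = 4, KO n = 6). WT library 15416 is lowest on both axes at left (265 and 17.6 CPM), and WT library 15418 is highest on both axes at right (6439 and 927 CPM).

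Compared per length, in TPM, the 3 D cyclins made up different shares of their sum. In WT, Ccnd3 took 35.9, 47.1, 73.6 and 28.7% of the D cyclin TPM, Ccnd2 took 61.3, 38.7, 16.5 and 55.2%, and Ccnd1 took 2.80, 14.2, 9.89 and 16.1%. In KO, Ccnd3 took 40.5 to 46.7% and was the steadiest of the 3, while Ccnd2 took 28.3 to 50.4% and Ccnd1 5.56 to 27.7%. The mean shares of the groups lay close together against their spread, at 43.2% ± 2.89 (SD, n = 6) in KO and 46.3% ± 19.7 (SD, n = 4) in WT for Ccnd3. For Ccnd2 they were 42.6% ± 9.64 and 42.9% ± 20.0. No test was made of these shares.

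**Figure D3:**
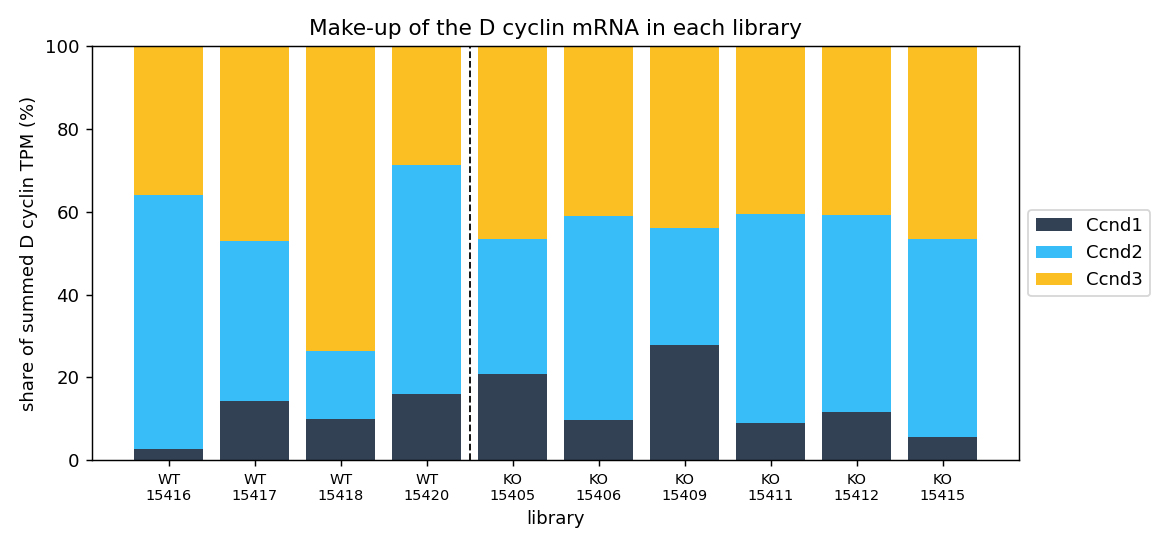
Share of the summed D cyclin TPM (percent, vertical axis) taken by Ccnd1, Ccnd2 and Ccnd3 in each library, with 4 WT bars left and 6 KO bars right of the dashed line. The Ccnd3 share is 40.5 to 46.7% in KO and runs from 28.7 to 73.6% in WT.

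Cdk4 (chromosome 10, 127063534 to 127067920, plus strand) and Cdk6 (chromosome 5, 3341485 to 3531008, plus strand) encode the kinases of the D cyclins. Cdk4 was at 813, 784, 695 and 635 CPM in WT and at 537 to 765 CPM in KO, with a log2 fold change of -0.18 (SE 0.16, edgeR adjusted p = 0.577). An offset for transcript length moved it to 0.01. Cdk6 was at 438, 131, 77.6 and 210 CPM in WT and at 94.0 to 171 CPM in KO, so the KO values lay inside the WT range. Its log2 fold change was -0.72 (SE 0.38, edgeR adjusted p = 0.334), and -0.10 without WT library 15416, the highest. Of the summed TPM of both kinases, Cdk4 made up 98.3% ± 0.521 (SD, n = 6) in KO and 97.8% ± 1.45 (SD, n = 4) in WT. When counts were divided by mean transcript length instead, its share was 92.9% in KO and 90.8% in WT. Exons of Cdk4 share 19.7% of their bases with Tspan31 on the other strand.

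Set in order of mean TPM in WT, the members ran from Cdk4 (678 TPM) through Ccnd3 (157), Ccnd2 (120), Ccne1 (78.0), Cdk2 (47.2), Ccnd1 (34.6), Cdc25a (19.1), Ccne2 (17.4) and Cdk6 (15.8) to E2f1 (10.3). Cdk4 and Ccnd3 were the one pair of neighbours in this order whose WT ranges did not overlap. In KO, Cdk4 (791 TPM), Ccnd3 (192) and Ccnd2 (188) again led, followed by Cdk2 (67.4), Ccnd1 (62.3), Ccne1 (39.1), E2f1 (18.1), Cdc25a (15.5), Ccne2 (13.9) and Cdk6 (12.8). Here the neighbours without overlap were Cdk4 and Ccnd3, Ccnd2 and Cdk2, and Ccne1 and E2f1. Ccne1 stood above Cdk2 in 3 of 4 WT libraries, and below Cdk2 and Ccnd1 in the KO order. Between KO and WT, TPM overlapped for all 10 members, whereas 935 of 15993 genes (5.85%) had groups that did not overlap in TPM. Ccne1 took 74.4% ± 4.91 (SD, n = 6) of the E cyclin TPM in KO and 79.2% ± 7.93 (SD, n = 4) in WT.

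E2f1 encodes the E2F factor held by the retinoblastoma protein. At the level of the gene it was at 14.8, 54.7, 66.5 and 6.09 CPM in WT and at 38.8 to 49.9 CPM in KO, so the KO values lay inside the wider WT range. The log2 fold change was 0.33 (SE 0.50, edgeR adjusted p = 0.779). Its 2 annotated transcripts, both protein coding, differ in their first exon, and the junction with exon 2 tells them apart. E2f1 lies on the minus strand of chromosome 2 at 154559407 to 154569892 (GRCm38). The first exon of E2f1-202 covers 154569489 to 154569892 (404 bases), and that of E2f1-201 covers 154569067 to 154569720 (654 bases), reaching 422 bases further into the intron and beginning 172 bases further downstream. Both join the same second exon, 154564418 to 154564508. The last exon of E2f1-202 also ends 227 bases further downstream. The 15 bases on each side of the junction are shown, with the second exon in capitals, because the reads that tell the transcripts apart include those across it.
E2f1-201: agttgcttgttggagGTGAAACGGAGGCTG
E2f1-202: ctcggccgcccgccgGTGAAACGGAGGCTG

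The share of E2f1 TPM on E2f1-201 was higher in every KO library than in any WT library. In KO it was 48.0, 34.6, 30.0, 75.3, 26.3 and 35.8% (libraries 15405, 15406, 15409, 15411, 15412 and 15415). In WT it was 0, 4.98, 1.69e-09 and 0.00759% (libraries 15416, 15417, 15418 and 15420). E2f1 was the 1 member of 10 whose leading transcript, here E2f1-202 with the remaining share, did not overlap between groups. Of 8175 genes with at least 2 transcripts and a mean of at least 5 TPM, 273 (3.34%) had such a leading transcript, and 1 of 10 is too few to read against that background. No test was made of the share.

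Estimated counts behind E2f1-201 were 110 to 787 in KO and 0 to 31.0 in WT, and those behind E2f1-202 were 206 to 994 in KO and 43.3 to 901 in WT. WT library 15418, with 901 estimated counts on E2f1-202, had an estimate near 0 on E2f1-201. The KO libraries that express Xist, 15406 and 15409, had shares of 34.6 and 30.0%, also above every WT library. Transcripts annotated as retained introns, a rough measure of incompletely spliced RNA, took 4.48 to 6.58% of all TPM in KO and 3.60 to 6.25% in WT, with medians of 6.19 and 5.58%. The part of such RNA in the E2f1-201 share was not tested. Kallisto divides reads between transcripts by a model, and reads that lie in the shared exons cannot tell these 2 transcripts apart.

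**Figure D4:**
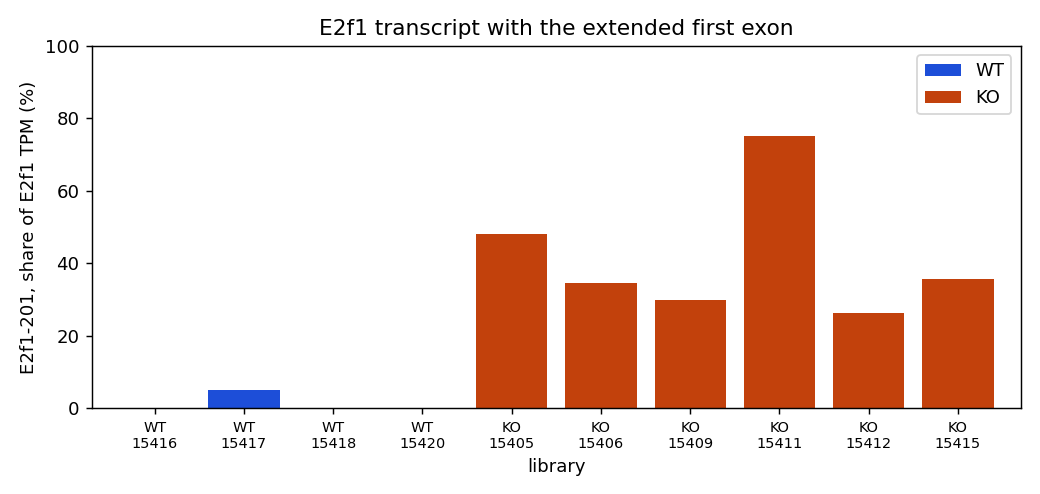
Share of E2f1 TPM on transcript E2f1-201 (percent, vertical axis) in each of 4 WT and 6 KO libraries. The KO bars stand between 26.3 and 75.3% and the highest WT bar at 4.98%.

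The leading transcripts of the other 9 members overlapped between the groups. Among their lesser transcripts, the noncoding Ccnd2-207 took 17.1 to 21.1% of Ccnd2 TPM in KO and 22.8 to 28.7% in WT. These groups did not overlap, and no test was made of the difference. How often lesser transcripts of all genes do not overlap was not worked out, so Ccnd2-207 cannot be read against a background. Ccne1-201 carried 98.2 to 100% of Ccne1 TPM in every library of both groups, Cdk6-202 90.3 to 97.5% of Cdk6 and Ccnd2-206 44.3 to 54.8% of Ccnd2. Ccnd3-205 took 72.6 to 97.3% of Ccnd3 in KO and 90.3 to 96.5% in WT. For Ccnd1, the coding transcript Ccnd1-201 took 66.3 to 99.3% in KO and 58.2 to 100% in WT, nearly all of the rest being a retained intron. The retained-intron transcript Cdk4-209 took 20.9 to 27.0% of Cdk4 TPM in KO and 24.0 to 35.3% in WT, beside the coding Cdk4-205 at 37.5 to 45.3% and 40.7 to 45.0%.

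The other genes of the pathway were grouped in 5 lists by role, 64 of them tested. None was called higher and 3 were called lower (4.69% of 64, beside 2.67% of all genes), namely E2f4, Ccnb1 and Ccnb2. In the lists, 53 of 64 log2 fold changes lay below 0, with a median of -0.36, against 0.06 over all genes. An unadjusted p under 0.05 by edgeR was met by 19 of the 64, beside 3139 of all 16725 genes tested. Each of the 3 called genes lost its call when Xist was a covariate, with an offset for transcript length or in the libraries that express Xist. In these fits 0 of all genes tested were called.

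Of 9 genes for E2F factors and their DP partners, 1 was lower and none higher, with a median log2 fold change of -0.26. Without WT library 15418 the median was 0.45, with 4 of 9 genes below 0, and over all 20 alternatives it ran from -0.50 to 0.45. E2f4, which encodes an E2F that represses its targets in resting cells, was at 80.6 to 112 CPM in KO and 133 to 273 CPM in WT. These groups did not overlap, and the log2 fold change was -0.97 (SE 0.22, edgeR adjusted p = 0.0824, 0.00488 to 0.837 over the alternatives). E2f6, a repressor as well, was at 22.6 to 49.4 CPM in KO and 31.9 to 103 CPM in WT, with -0.91 (SE 0.33, adjusted p = 0.166).

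Of 10 genes for the brakes of the pathway, the pocket proteins and the CDK inhibitors, 9 were tested and none passed in either direction (1 had an unadjusted p under 0.05), with a median log2 fold change of -0.16. The median was 0.31 without WT library 15416, 0.28 without WT library 15418 and 0.03 with the length offset, so its sign rested on single libraries and on the offset. Cdkn1a, which encodes the inhibitor p21, was at 22.8 to 76.5 CPM in KO and 9.25 to 29.3 CPM in WT, with 1.31 (SE 0.40, edgeR adjusted p = 0.118, and 0.0632 with the DESeq2 settings of the study). Cdkn1b, which encodes p27, was at 25.4 to 44.5 and 14.48 to 33.7 CPM, with 0.49 (SE 0.26, adjusted p = 0.339). Both log2 fold changes lay above 0, and both pairs of groups overlapped.

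Of 17 genes for regulators of cyclins and CDKs, such as activating kinases, phosphatases and ubiquitin ligase subunits, none passed by edgeR (3 had an unadjusted p under 0.05), and 13 had a log2 fold change below 0, with a median of -0.27. Cks1b, whose product binds CDKs and helps to remove p27, had 5 of 6 KO libraries below the lowest WT library, at 187 to 253 CPM against 248 to 418 CPM, with -0.66 (SE 0.19, edgeR adjusted p = 0.103). Cdk7, the kinase that activates other CDKs, was at 50.3 to 60.7 CPM in KO and 53.5 to 160 CPM in WT, with -0.65 (SE 0.27, adjusted p = 0.217).

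Of 17 genes of S phase, many of them known E2F targets, none passed by edgeR. Yet all 17 log2 fold changes lay below 0, with a median of -0.46. By edgeR 9 of the 17 had an unadjusted p under 0.05, beside 3139 of all 16725 genes tested. Under the 20 alternatives the median of the list ran from -0.65 to -0.31 and 16 or 17 genes lay below 0. Cdc45, a part of the replicative helicase, was at 35.9 to 63.9 CPM in KO and 62.6 to 123 CPM in WT, with -0.79 (SE 0.23, edgeR adjusted p = 0.105, and 0.0939 with the DESeq2 settings of the study, which called it). Ccna2, which encodes the cyclin that takes over CDK2 in S phase, was at 120 to 209 and 190 to 362 CPM, with -0.75 (SE 0.23, adjusted p = 0.112).

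Of 12 genes of G2 and mitosis, 2 were lower and none higher, and all 12 log2 fold changes lay below 0, with a median of -0.33. Without WT library 15418, 9 of 12 lay below 0 (median -0.18), and in the libraries that express Xist 10 of 12 did (median -0.12). Ccnb1, which encodes cyclin B1 of the mitotic kinase, was at 246 to 393 CPM in KO and 405 to 679 CPM in WT, with -0.90 (SE 0.20, edgeR adjusted p = 0.0824, 0.00445 to 0.837 over the alternatives). Ccnb2, for cyclin B2, was at 134 to 180 and 223 to 303 CPM, with -0.74 (SE 0.16, adjusted p = 0.0824, 0.00126 to 0.837). For both genes the groups did not overlap. Genes of one list share cells and libraries and are not independent, so these counts describe the lists and test nothing. Of the markers, 2 of 9 stem cell genes were called higher in KO (Mecom and Hlf), beside 1.32% of all genes, and the sum of the 9 ranged from 235 to 1251 CPM in KO and from 279 to 470 CPM in WT. The 7 erythroblast genes included 1 called lower in KO (Epor), and of 12 macrophage genes 1 was, Marco, at 0 in all 6 KO libraries and at 3.41 to 14.3 CPM in WT, beside 2.67% of all genes called lower. Over the alternatives the adjusted p of each of these 4 genes reached 0.837. The 0 values of Marco do not stand for the macrophage list, since Csf1r was at 5.25 to 34.4 CPM in KO and 13.9 to 76.2 CPM in WT. The sum of the list ranged from 162 to 773 CPM in KO and from 48.8 to 642 CPM in WT. Mrc1 alone ranged from 65.4 to 714 CPM in KO and from 3.11 to 489 CPM in WT, so the sum says little of the other genes. Of the 12 macrophage genes, 10 had a log2 fold change below 0 and 2 above it, Mrc1 (0.22) and Cd68 (0.30). All 7 erythroblast genes had a log2 fold change below 0, with a median of -1.50. The part of cell mixture in the lower cycle genes was not tested.

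**Figure D5:**
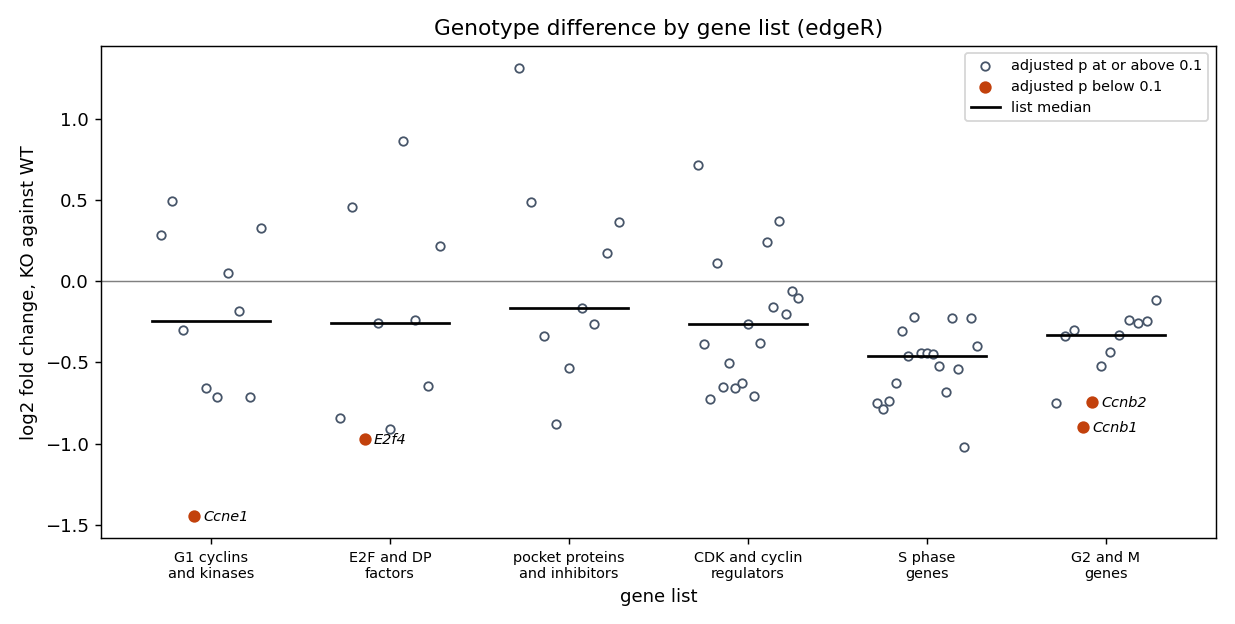
Log2 fold change (KO against WT, edgeR; vertical axis) of each tested gene in the members and the 5 pathway lists, with filled points for an adjusted p below 0.1 and a bar at the list median. All 17 S phase genes and all 12 genes of G2 and mitosis lie below 0, and 4 genes are filled, Ccne1, E2f4, Ccnb1 and Ccnb2.

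For each member, the genes with the most similar levels were sought among 9495 genes with a mean of at least 10 CPM, by Pearson's r of log2 CPM over the 10 libraries of both groups. These values are descriptions, since libraries share their depth and cell mixture. Ccnd1 was most like Dcbld1 (r = 0.990) and Tmem88 (0.990), Ccnd2 like Gabarapl1 (0.949) and Kit (0.948), and Ccnd3 like Slc25a39 (0.964) and Atp6v0a1 (0.948). Ccne1 was most like Qsox1 (0.972) and Pgp (0.968), and Ccne2 like Poc1a (0.948) and Asf1b (0.943). Cdc25a was most like Nasp (0.987) and Cops5 (0.973), and E2f1 like Mcoln1 (0.966) and Tjap1 (0.961). Of the kinases, Cdk2 was most like Fam3a (0.923) and Slc25a20 (0.915), Cdk4 like Slc9a3r2 (0.971) and Papola (0.948), and Cdk6 like Rab4a (0.949) and Tmed5 (0.945). No member was among the 2 genes most like another member.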

How the data were processed

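Libraries were made by SmartSeq2, a protocol for little RNA that does not keep strand, and sequenced as short single-end reads. Per the submitters' processing notes, bcl2fastq 2.20 and kallisto 0.44.0 were used, and the study's methods name Gencode vM16 (GRCm38). For each library the authors deposited estimated counts per transcript, not normalized, and TPM, scaled for effective length. They also deposited 1 table of gene counts, summed over transcripts per gene symbol and rounded. How symbols were assigned is not given in the sources used here. Positions and transcript structures came from Gencode vM21 on the same build, to which 99.627% of transcripts matched, and promoters from RefSeq.

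Genes whose counts summed to 11 or more were tested with edgeR 4.0.16 in R 4.3.3 (TMM, robust glmQLFit, glmQLFTest, Benjamini-Hochberg over all genes tested, threshold 0.1). The script was tested on simulated data. Alternatives were DESeq2 1.42.0, other normalizations and filters, Xist as a covariate, a loess offset (span 0.3) on transcript length, a threshold of 0.05 and each library left out. Chosen after seeing the data were the fit of libraries that express Xist, the overlap of TPM and the background of leading transcripts. The members, the lists and the rule for named genes (all members, called genes, the 2 genes of smallest p per list, the 2 most similar genes per member, the genes of the model and cell type markers) were chosen with earlier results of these data known. Counting error is among the limits on values at 5315435 to 30941726 counts per library, and reads carry no molecular identifiers. The labels give each library as a separate sample, and p-values measure the spread between these samples.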

Additional observations from a re-analysis of the deposited data

Results flagged for a closer look

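In 20 groups of CPM values (10 members in KO and WT), 2 held a library that stood apart by Dixon's criterion, which chance meets in about 1 in 20 groups. Ccnd1 was at 17.6 CPM in WT library 15416, with the next WT library at 165 CPM. The gap was 0.963 of the group's range. Summed endothelial genes (265 CPM) and summed macrophage genes (48.8 CPM) were also lowest in this library, and their part in its Ccnd1 level was not tested. Ccne2 was at 39.2 CPM in KO library 15409, with the next KO library at 26.4 CPM, a gap of 0.657 of the range.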

How the results depend on the processing

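With 4 WT libraries, single libraries decided several values. One library left out at a time gave log2 fold changes of -0.078 to 0.48 for Ccnd1, 0.39 to 0.63 for Ccnd2, -0.57 to 0.55 for Ccnd3, -1.67 to -1.04 for Ccne1, -0.81 to -0.41 for Ccne2, -0.083 to 0.15 for Cdk2, -0.24 to -0.10 for Cdk4, -0.93 to -0.10 for Cdk6, -0.022 to 0.85 for E2f1 and -0.85 to -0.37 for Cdc25a. Ccne1 lost its call without KO library 15405, 15406, 15411, 15412 or 15415 or WT library 15416 (adjusted p up to 0.205), and kept it without any of the other 4. Those fits called 0 of all genes tested, but for 1 gene without KO library 15411, so the loss was not particular to Ccne1. Its log2 fold change stayed between -1.48 and -1.38 when any of those 5 KO libraries was left out. Counts of calls ran from 0 to 1 for the members, 0 to 9 for the pathway and 0 to 1003 for all genes, against 1, 3 and 667.

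With Xist as a covariate Ccne1 had -1.43 (edgeR adjusted p = 0.251), with the length offset -1.17 (0.130) and in the libraries that express Xist -1.40 (0.837). The length offset turned Cdk2 to -0.043 and Cdk4 to 0.010. Calls fell to 0 in members, pathway and all genes under these 3 fits and at an adjusted p below 0.05. By edgeR at an unadjusted p under 0.05 these had 1, 5, 1 and 3 members, 11, 14, 3 and 19 pathway genes, and 2461, 2611, 703 and 3139 genes in all (Xist covariate, length offset, Xist-expressing libraries and stricter threshold in turn). DESeq2 called 5 pathway genes (1 higher, 4 lower) and 1136 genes in all with the study's threshold, 10 (1 higher, 9 lower) and 2143 without it, and filterByExpr gave 6 pathway genes. The causes were not tested. Counts per mean length in place of TPM gave shares of 49.9 and 55.4% for Ccnd3 and 35.2 and 31.5% for Ccnd2 (KO and WT). The mean shares of Ccnd3 and Ccnd2, near each other in TPM, thus lay further apart by this measure. Those for Ccne1 were 82.6 and 87.9%, and those for Cdk4 92.9 and 90.8%. No paired analysis was possible because the groups share no replicate numbers.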
